A study of Danio rerio with 20 samples.

Results

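The circadian clock genes described here are 12 of the 32105 gene identifiers counted in larval zebrafish liver. They were picked by name, with earlier results of these data known. The 10 names (per1a, per1b, per2, per3, cry1a, nr1d1, nr1d2a, nr1d2b, bmal1a and tefa) were looked up in a table of gene symbols. Case was ignored and, where nothing matched, a final a or b. That table writes many zebrafish genes with a symbol in capitals and gives PER1, CRY1 and BMAL1 to 2 identifiers each. Which identifier of such a pair is the a or the b gene was not told by the table, so both were kept and are printed with their Ensembl identifier, and nr1d2b was matched as NR1D2. The livers came from larvae 5 days after fertilization, with 12 to 15 livers pooled per library. Wild-type larvae were of the TAB5 line. The as3mt mutants carried, on both alleles and in the whole body, an 8 bp deletion made by CRISPR in exon 3 of the arsenite methyltransferase gene, on the ABNYU background, so genotype and background line cannot be told apart. Larvae of each genotype were left unexposed (0 mM) or were exposed to 1 mM sodium arsenite, an inorganic form of arsenic (iAs), starting at 96 h of age and ending with the dissection (about 119 h), which made 4 groups of 5 libraries. All were kept under a light and dark cycle given in the labels as 10:14, with 1 dissection age for every group, so a change in the level of a rhythm and a shift in its timing cannot be told apart.

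The vertebrate clock is a feedback loop of transcription. A CLOCK:BMAL1 dimer activates the PER and CRY genes, whose proteins return to the nucleus and repress the dimer. In a linked loop CLOCK:BMAL1 also activates the nuclear receptors NR1D1 and NR1D2 (REV-ERB), which repress BMAL1, while receptors of the ROR family activate it. The PAR bZIP factors, tefa among them, carry the rhythm to output genes, and in the mammalian liver the clock times bile acid, lipid and xenobiotic metabolism. Zebrafish organs hold clocks that respond to light directly, and per2, tefa and some cryptochrome and photolyase genes are known there as light-induced.

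Library totals ran from 25406597 to 42047561 counts. All 12 genes passed the low-count filter, which left 16389 tested genes. Levels are given in CPM, read counts scaled to a common library size, after TMM scaling, which assumes most genes do not change. The mutated gene itself, listed as AS3MT, held 119 to 134 CPM in unexposed wild type and 61.8 to 81.1 in unexposed mutants, with no overlap. Its transcript was thus still counted in mutants, which carry a deletion of 8 bp in it. The cause of its lower level was not tested. A list of 10 hepatocyte markers, none of them at 0, summed to 149425 to 170236 CPM in wild type without arsenite and 37069 to 73116 with it, and in mutants to 125492 to 153750 without and 23076 to 35739 with it. The hepatocyte sum therefore fell with arsenite in both genotypes, as most clock genes did. Intestine, biliary and endothelial marker sums also fell without overlap in both, the endothelial one from 124 to 181 CPM to 75.9 to 92 in wild type. The intestine sum was nearly all FABP2 (mean 291 CPM in unexposed wild type) and the biliary sum nearly all ANXA4 (1025). Means of biliary epcam rose, from 28.5 to 33.2 CPM in wild type and from 36.7 to 39.8 in mutants. Endothelial stab2 also rose (1.44 to 2.92 and 0.966 to 2.73), while the other endothelial markers fell. Sums of stellate, macrophage, red blood cell, muscle, and neuron and retina markers overlapped across exposure in at least 1 genotype. In pooled livers fewer cells of a type and less RNA per cell cannot be told apart, and the part that cell make-up has in the clock values was not tested. Exocrine pancreas markers (13 identifiers) summed to 33.8 to 205 CPM in wild type without arsenite and 17.6 to 49 with it, and in mutants to 99 to 1312 without and 14.1 to 596 with it.

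Arsenite lowered most of the clock genes and raised BMAL1. In wild type 9 of the 12 passed the test, 7 lower and 2 higher, against 53.3% of all tested genes, of which 24.6% were lower and 28.7% higher. In mutants 11 of 12 passed, 9 lower and 2 higher, against 61.8% of all tested genes, with 30.3% lower and 31.5% higher. The median log2 change of the 12 was -1.15 in wild type and -2.0 in mutants, beside 0.03 and -0.00 over all tested genes. The lower genes were PER, CRY and NR1D genes and tefa, and the higher ones were the 2 BMAL1 genes. Groups without overlap were seen for 6 lower and 2 higher genes in wild type (16.1% and 18.7% of all tested genes, 34.7% in all) and for 8 lower and 2 higher genes in mutants (23.1% and 25.1%, 48.2% in all). These counts depend on the scaling. With plain library totals in place of TMM, the median of all tested genes moved to 0.75 in wild type and 0.83 in mutants, and calls that were higher made up 88.1% and 83.4% of all calls in place of 53.8% and 51%. Under that scaling 6 of 12 clock genes passed in wild type and 8 of 12 in mutants, with the 2 BMAL1 genes still higher in each. Over all 16389 tested genes 11053 passed in wild type and 11804 in mutants, of which 1313 and 1962 were lower. The share of clock genes called in either direction was then not above that of all tested genes. By direction they differed, since most called clock genes were lower, whereas 88.1% and 83.4% of all calls were higher. PER1 (ENSDARG00000012499), PER3, CRY1 (ENSDARG00000011583) and tefa were still called lower in each genotype. Overlap of groups was judged on TMM-scaled CPM throughout. With library totals some wild-type groups that are separate on that scale overlap, among them those of PER1 (ENSDARG00000012499), CRY1 (ENSDARG00000045768) and tefa.

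**Figure D1:**
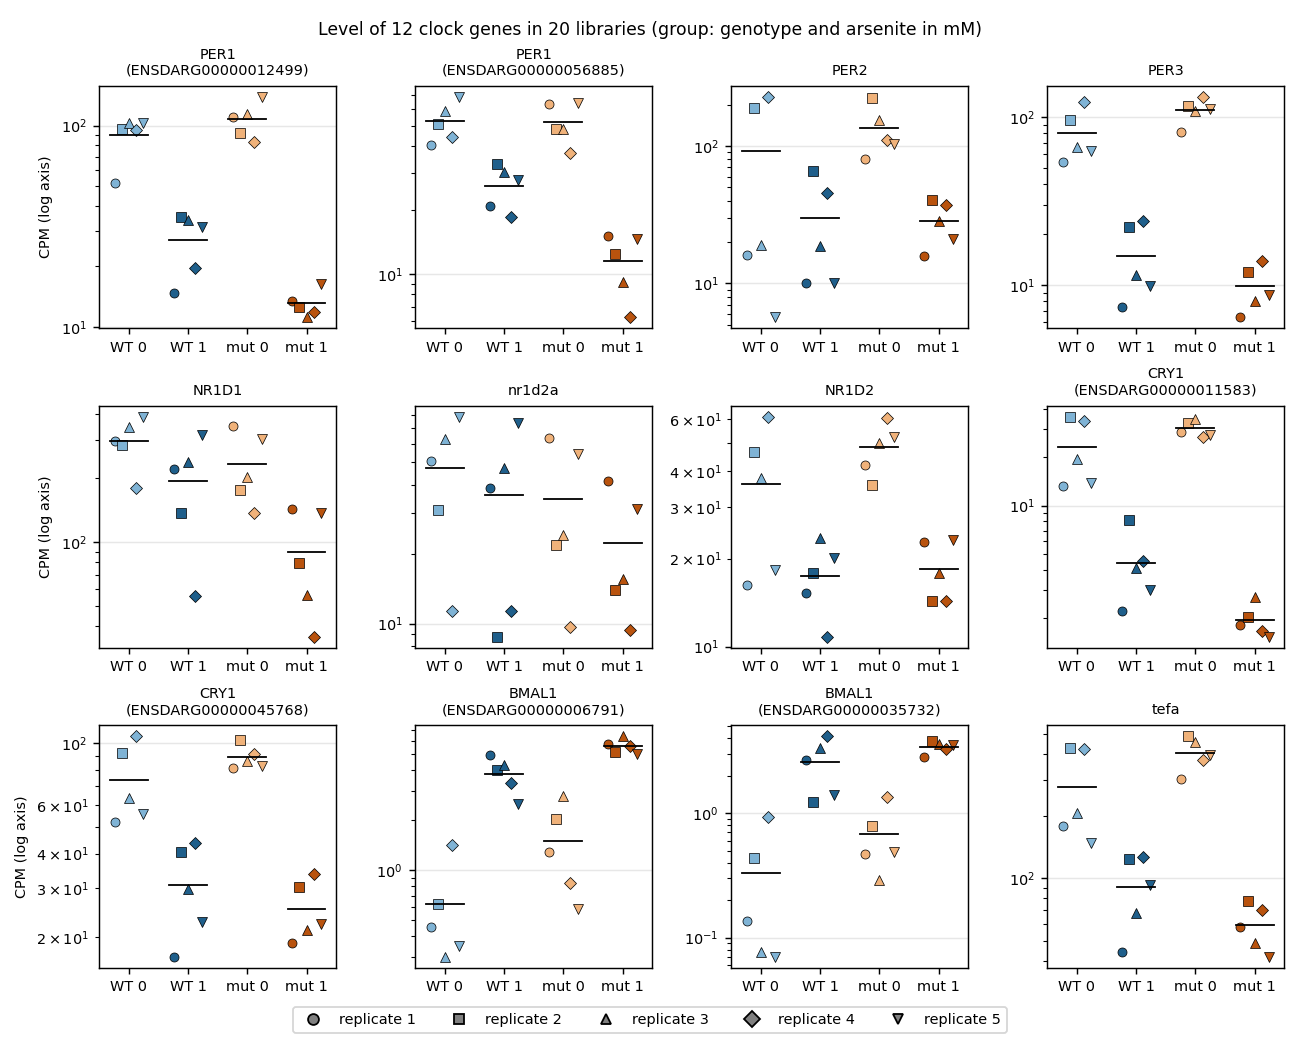
Level of each of the 12 clock genes, in CPM on a log axis, in the 5 libraries of each group. Each point is 1 pooled-liver library and the lines mark group means. On the TMM-scaled values shown, exposed libraries of each genotype lie below unexposed ones without overlap for PER1, PER3, CRY1 and tefa. For both BMAL1 genes they lie above them.

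The PER genes encode repressors that act with CRY. PER1 (ENSDARG00000012499) was at 51.7, 95.7, 103, 94.7 and 103 CPM in unexposed wild-type replicates 1 to 5 and at 14.8, 35.3, 33.8, 19.6 and 31.2 CPM in exposed ones. In mutants it was at 110, 92.3, 114, 82.6 and 139 CPM without arsenite and at 13.4, 12.6, 11.2, 11.8 and 16.3 CPM with it. Exposed and unexposed libraries did not overlap in either genotype, and unexposed wild-type replicate 1 stood well under its group. Arsenite left it 3.33-fold lower in wild type and 8.24-fold lower in mutants, as log2 changes -1.74 ± 0.23 and -3.04 ± 0.24 (SE; edgeR adjusted p = 2.23e-06 and 1.03e-09). The other identifier, PER1 (ENSDARG00000056885), held 40.4 to 68.6 CPM in unexposed wild type (mean 52.6 ± 11.3 SD, n = 5) and 18.6 to 33 in exposed wild type (26.1 ± 6.1). In mutants it held 37.3 to 63.9 CPM unexposed (52.2 ± 11.3) and 6.26 to 15.1 exposed (11.5 ± 3.76). Again no exposed library reached an unexposed one of its genotype. Its log2 change was -1.01 ± 0.22 in wild type and -2.18 ± 0.23 in mutants (edgeR adjusted p = 0.00072 and 7.32e-08). With library totals in place of TMM its wild-type change was -0.30 and did not pass (edgeR adjusted p = 0.196).

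PER3 was lowered more than 5-fold in each genotype in the main fit. Unexposed wild-type libraries held 53.8, 95.9, 65.8, 122 and 62.6 CPM of it and exposed ones 7.35, 22.1, 11.5, 24 and 9.83 CPM. Mutant libraries held 80.9, 116, 108, 132 and 111 CPM unexposed and 6.44, 11.9, 8.01, 13.9 and 8.7 CPM exposed. The groups lay far apart, and within each group replicates 2 and 4 were the highest. The fall was 5.35-fold in wild type (log2 change -2.42 ± 0.31, edgeR adjusted p = 1.76e-06) and 11.2-fold in mutants (-3.48 ± 0.32, edgeR adjusted p = 1.11e-08). Its size depended on the fit. Over 28 alternative fits the smallest log2 change was -1.71 in wild type and -2.64 in mutants, and all 28 passed in each.

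PER2, known in zebrafish as a light-induced member of the family, had the widest range of the 12 in unexposed wild type. It was at 16.2, 189, 19, 229 and 5.69 CPM, a 40.2-fold range within 1 group that rests on 162 to 5676 counts. Exposed wild-type libraries held 10.1, 66.3, 18.6, 45.4 and 10.1 CPM. Replicates 2 and 4 were high in each of these groups, the other 3 were low, and the groups overlapped. Mutant libraries held 80.5, 223, 154, 111 and 104 CPM without arsenite and 15.8, 40.4, 28.4, 37.1 and 20.9 CPM with it, with no overlap. The change in wild type, -1.61 ± 0.75, did not pass (edgeR adjusted p = 0.0778), and the fall in mutants, -2.24 ± 0.76, did (edgeR adjusted p = 0.0154). The wild-type result turned on single libraries: it passed when unexposed wild-type replicate 1, 3 or 5 or exposed wild-type replicate 2 was left out (lowest edgeR adjusted p = 0.0248), and adjusted p rose to 0.306 at most when another was. In mutants PER2 did not pass with library totals as the scaling (-1.39, edgeR adjusted p = 0.106).

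CRY1 encodes the partner of PER in repression. CRY1 (ENSDARG00000011583) was at 13.3, 35.7, 19.5, 33.3 and 13.9 CPM in unexposed wild type and at 2.23, 8.2, 4.08, 4.52 and 3.02 CPM in exposed wild type. Mutant libraries held 28.8, 32.7, 34.7, 26.6 and 27.6 CPM unexposed and 1.82, 2.03, 2.73, 1.66 and 1.54 CPM exposed, the latter from 70 to 143 counts. All exposed libraries were below all unexposed ones. Its fall in mutants, 15.3-fold (log2 change -3.94 ± 0.33, edgeR adjusted p = 3.05e-09), was the largest fall among the 12 genes, beside 5.24-fold in wild type (-2.39 ± 0.31, edgeR adjusted p = 2.31e-06). CRY1 (ENSDARG00000045768) fell less. In wild type it held 52 to 106 CPM without arsenite (mean 73.9 ± 24 SD, n = 5) and 17 to 43.8 with it (30.8 ± 11.4). In mutants it held 81.2 to 103 CPM without (89 ± 8.58) and 19.1 to 33.7 with arsenite (25.3 ± 6.32). These groups did not overlap across exposure either. The log2 changes were -1.26 ± 0.24 in wild type (edgeR adjusted p = 0.000179) and -1.81 ± 0.24 in mutants (edgeR adjusted p = 1.92e-06), and with library totals the wild-type change of -0.55 missed the threshold (edgeR adjusted p = 0.064).

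The nuclear receptors of the linked loop had log2 changes in mutants closer to 0 than those of each of the other 9 genes. NR1D1 was at 297, 285, 347, 179 and 388 CPM in unexposed wild type and at 219, 137, 236, 55.9 and 319 CPM in exposed wild type. Mutant libraries held 351, 176, 201, 137 and 303 CPM unexposed and 142, 79.3, 56.5, 35.8 and 136 CPM exposed. The groups overlapped in both genotypes, in mutants only because exposed replicate 1 exceeded unexposed replicate 4. The change in wild type, -0.63 ± 0.40, did not pass (edgeR adjusted p = 0.19) and turned to 0.08 with library totals, while the fall in mutants was 2.6-fold (-1.38 ± 0.40, edgeR adjusted p = 0.00558) and did not pass with library totals (-0.56, edgeR adjusted p = 0.184). Among the alternative fits, the wild-type change of NR1D1 passed only with a block for replicate number (edgeR adjusted p = 0.0051). NR1D2 held 16.3 to 61.4 CPM in wild type without arsenite (36 ± 19.1 SD, n = 5) and 10.8 to 23.5 with it (17.5 ± 4.85). In mutants it held 35.9 to 60.8 CPM without (48.1 ± 9.63) and 14.3 to 23.1 with arsenite (18.5 ± 4.37). Only the mutant groups were separate. The log2 changes of NR1D2 were -1.04 ± 0.30 in wild type and -1.38 ± 0.30 in mutants (edgeR adjusted p = 0.00566 and 0.000419). Neither fall passed with library totals (-0.34 and -0.56, edgeR adjusted p = 0.316 and 0.0888).

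Of the 12 genes, nr1d2a alone passed in neither genotype. Its libraries held 50.7, 30.9, 63.3, 11.3 and 78.8 CPM in unexposed wild type and 38.5, 8.78, 47.3, 11.4 and 73.6 CPM in exposed wild type. In mutants they held 63.8, 21.8, 24.2, 9.63 and 54 CPM unexposed and 41.5, 14, 15.6, 9.36 and 31.3 CPM exposed. Each group spanned at least a 4.44-fold range, with replicates 2 and 4 lowest in all 4 groups, and exposed and unexposed libraries lay over each other. Taken by replicate number, each exposed mutant library was below the unexposed one, and in wild type all but replicate 4 were. The change passed in 0 of 28 alternative fits in each genotype, the block for replicate number among them. The log2 change was -0.39 ± 0.59 in wild type (95% interval -1.55 to 0.77, edgeR adjusted p = 0.601) and -0.63 ± 0.60 in mutants (-1.80 to 0.53, edgeR adjusted p = 0.366). Those intervals are wide enough to hold changes as large as those of NR1D1 and NR1D2.

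BMAL1, the activating partner of CLOCK, rose from a very low level. BMAL1 (ENSDARG00000006791) was at 0.456, 0.625, 0.303, 1.41 and 0.351 CPM in unexposed wild type, from 8 to 35 counts, and at 4.9, 3.98, 4.31, 3.34 and 2.49 CPM in exposed wild type, from 94 to 171 counts. Mutant libraries held 1.28, 2.02, 2.81, 0.833 and 0.582 CPM unexposed and 5.7, 5.11, 6.38, 5.59 and 5.02 CPM exposed. Every exposed library was above every unexposed library of its genotype. The rise was 6.03-fold in wild type (log2 change 2.59 ± 0.40, edgeR adjusted p = 1.74e-05) and 3.73-fold in mutants (1.90 ± 0.37, edgeR adjusted p = 0.000149). BMAL1 (ENSDARG00000035732) was lower still without arsenite, at 0.137, 0.433, 0.0759, 0.928 and 0.0703 CPM in wild type, where the smallest library value was 2 counts. With arsenite, wild type reached 1.22 to 4.15 CPM (2.56 ± 1.25 SD, n = 5). Mutants went from 0.29 to 1.35 CPM (0.679 ± 0.416) to 2.83 to 3.79 (3.4 ± 0.37). The groups were separate across exposure here too. The log2 rise was 2.97 ± 0.54 in wild type and 2.29 ± 0.49 in mutants (edgeR adjusted p = 0.000115 and 0.000443). Without unexposed wild-type replicate 4, the highest of its group, the wild-type rise was 3.90 (edgeR adjusted p = 8.34e-06). The low-count filter of 0.29 CPM applies to CPM from plain library totals, not to the TMM-scaled values above. On that scale only 3 and 2 of 5 unexposed wild-type libraries reached it for these 2 genes. The size of the rise is therefore less certain than its direction.

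The output factor tefa, which is light-induced in zebrafish, followed the PER genes. It was at 179, 426, 207, 423 and 148 CPM in unexposed wild type and at 44, 124, 68.1, 127 and 93.3 CPM in exposed wild type. Mutant libraries held 302, 486, 455, 374 and 393 CPM unexposed and 58.5, 77.9, 48.7, 70.5 and 41.9 CPM exposed. Unexposed wild-type replicates 2 and 4 (426 and 423 CPM) stood far above their 3 group mates (148 to 207), and exposed libraries did not overlap unexposed ones. The fall was 3.03-fold in wild type (log2 change -1.60 ± 0.31, edgeR adjusted p = 0.000192) and 6.75-fold in mutants (-2.76 ± 0.32, edgeR adjusted p = 2.7e-07).

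**Figure D2:**
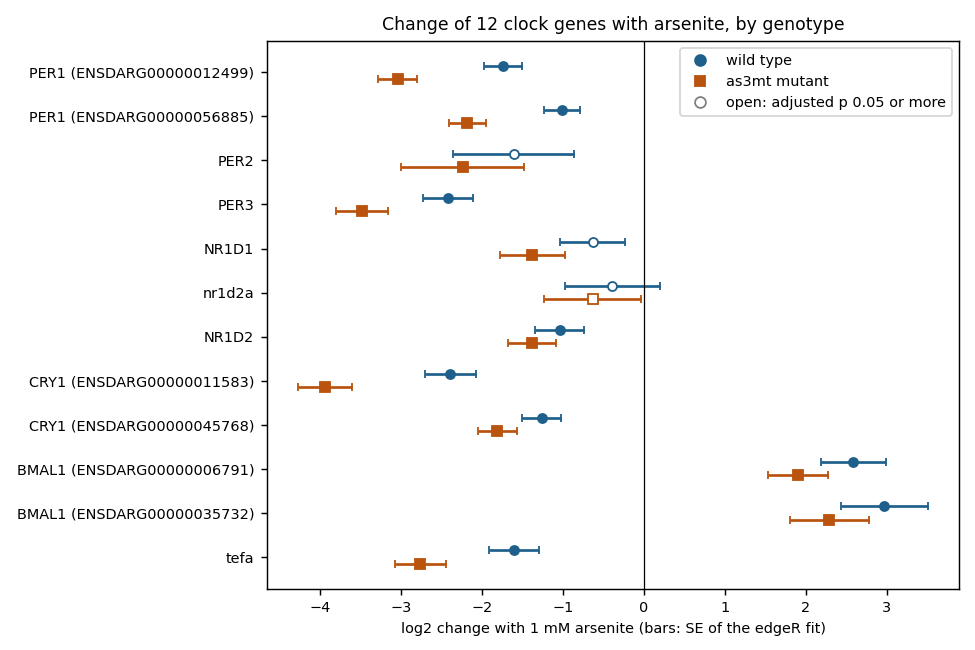
Log2 change with 1 mM arsenite of each of the 12 clock genes in wild type (circles) and in as3mt mutants (squares), with the SE of the edgeR fit as bars and open symbols where adjusted p was 0.05 or more. The mutant symbol lies to the left of the wild-type symbol for all 12, and open symbols are seen for PER2, NR1D1 and nr1d2a in wild type and for nr1d2a in mutants.

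Of 41 further clock genes looked up from a list, 37 were tested. Of these, bmal2, nfil3-5 and csnk1e passed the low-count filter only through the exposed libraries. They are kept in the counts below, though the filter favoured a higher call for them. In wild type 17 were lower and 10 higher with arsenite, beside 24.6% and 28.7% of all tested genes, with a median log2 change of -0.46. In mutants 20 were lower and 10 higher, beside 30.3% and 31.5%, with a median of -0.81. This balance turned with the scaling: with library totals 5 were lower and 16 higher in wild type (median 0.26) and 12 lower and 16 higher in mutants (median 0.03), while the median of all tested genes moved up as given above. The largest falls in mutants were in BHLHE40 and BHLHE41 (DEC1 and DEC2), E-box repressors of CLOCK:BMAL1. BHLHE40 went from 120 ± 29.1 CPM (SD, n = 5) to 30 ± 9.36 in wild type and from 109 ± 24.4 to 9.72 ± 0.638 in mutants (log2 changes -2.01 and -3.48, edgeR adjusted p = 1.65e-07 and 8.45e-11). BHLHE41 went from 77.1 ± 20.9 to 25.6 ± 5.92 CPM in wild type and from 51 ± 8.07 to 4.33 ± 1.14 in mutants (-1.59 and -3.55, edgeR adjusted p = 1.64e-06 and 4.38e-11). Other cryptochromes of the repressor group moved in both directions. CRY2 fell by 0.93 in wild type and by 1.81 in mutants on the log2 scale (edgeR adjusted p = 0.000305 and 7.48e-08), whereas cry3b rose, from 2.96 to 9.62 CPM in wild type and from 3.96 to 10.5 in mutants (log2 changes 1.70 and 1.40, edgeR adjusted p = 0.00178 and 0.0052). The other PAR bZIP genes fell in each genotype: dbpa by 1.88 and 2.43, hlfa by 0.97 and 1.68, tefb by 0.89 and 1.43, and dbpb by 0.64 and 1.30 (highest edgeR adjusted p = 0.0113). With library totals the falls of CRY2, tefb, hlfa and dbpb passed in mutants only.

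Among the other activators, bmal2 went from 0.303 ± 0.0716 CPM (SD, n = 5) to 3.17 ± 2.09 in wild type and from 0.389 ± 0.0913 to 2.48 ± 0.492 in mutants. Like nfil3-5 and csnk1e, it passed the low-count filter only through the exposed libraries, so a difference was built into its selection, and no test of it is given. All 3 are among the 37 tested genes. Their calls among the 10 higher (bmal2 and nfil3-5 in each genotype, csnk1e in mutants only) were favoured by the filter and are not evidence of a rise. The gene CLOCK (ENSDARG00000011703) rose by log2 changes of 1.60 and 1.53 (edgeR adjusted p = 0.000858 and 0.000566) from 0.592 and 1.13 CPM, whereas the more deeply counted CLOCK (ENSDARG00000003631) held 8.16 to 11.3 CPM in group means and did not pass in either genotype (0.18 and 0.06, edgeR adjusted p = 0.291 and 0.723) except with library totals (0.90 and 0.89). The ROR receptors, activators of BMAL1, went in different directions. Falls were 2.45 and 2.98 for rorab, 1.77 and 1.55 for rorca and 1.32 and 1.67 for RORA. The gene rorcb rose by 3.17 and 2.55 from 0.5 and 0.732 CPM (highest edgeR adjusted p of these genes 0.0297). In wild type the groups of rorca, RORA and rorcb overlapped across exposure. Unexposed libraries there had only 1 to 37 counts of rorcb and 6 to 47 of RORA. The falls of rorca and RORA did not pass with library totals in either genotype. The receptor gene nr1d4b, of the same family as NR1D1, rose from 5.51 to 23.7 CPM in wild type and from 2.54 to 20.9 in mutants (log2 changes 2.1 and 3.04, edgeR adjusted p = 0.000589 and 1.28e-05). The photolyase-related genes cry5 and cry-dash fell by 1.56 and 1.30 in wild type and by 2.17 and 1.40 in mutants (highest edgeR adjusted p = 0.00155), and with library totals only the fall of cry5 in mutants passed. Listed in the same group, cry4 rose, from 1.84 to 4.48 CPM in wild type and from 2.89 to 5.34 in mutants (1.29 and 0.89, edgeR adjusted p = 0.00687 and 0.0391).

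**Figure D3:**
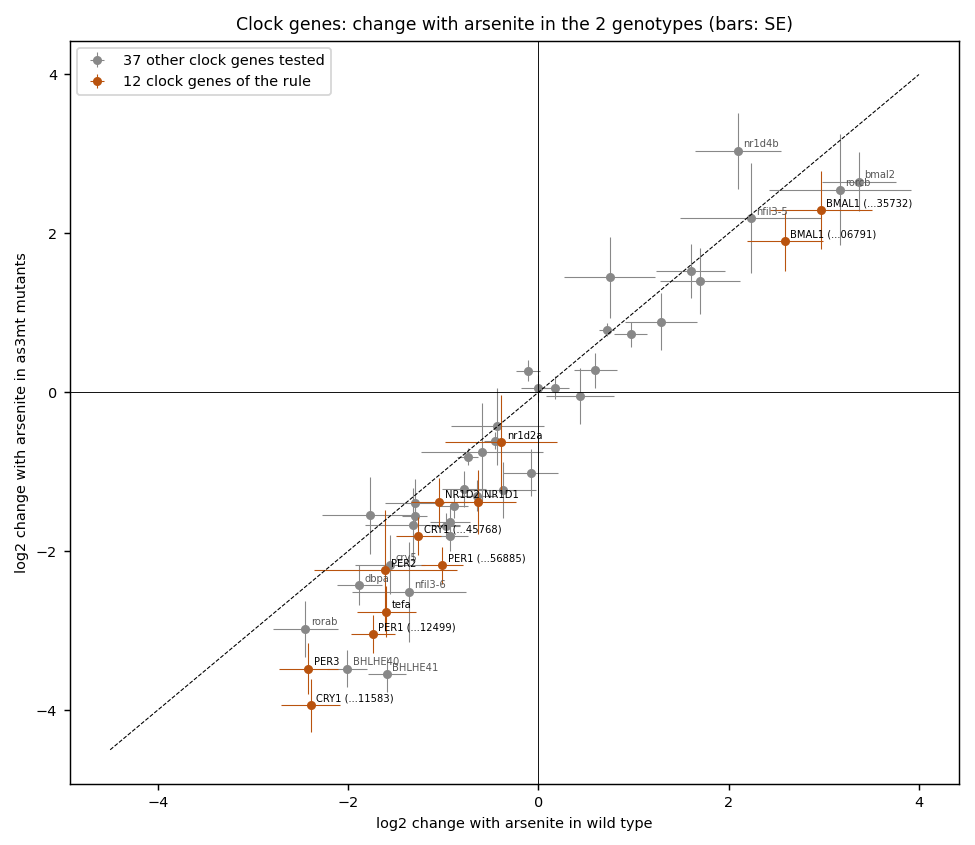
Log2 change with arsenite in as3mt mutants against that in wild type for the 12 clock genes (orange) and 37 other tested clock genes (grey), with SE bars and the line of equal change dashed. Each point is 1 gene, and the 2 axes come from different libraries. BMAL1, bmal2, rorcb and nr1d4b lie at the upper right, and CRY1 (ENSDARG00000011583), PER3, BHLHE40 and BHLHE41 lie at the lower left, below the dashed line. The genes bmal2, nfil3-5 and csnk1e, also plotted, passed the low-count filter only through the exposed libraries, so their positions are not evidence of a rise.

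Without arsenite the clock genes of the 2 genotypes lay over each other. Of the 12, only BMAL1 (ENSDARG00000006791) passed, higher in mutants (log2 difference 1.24 ± 0.41, edgeR adjusted p = 0.0471), against 13.8% of all tested genes called, 5.91% higher and 7.91% lower. Its groups overlapped, at 0.303 to 1.41 CPM in wild type and 0.582 to 2.81 in mutants, and none of the 12 was free of overlap, against 10.6% of all tested genes that were. No BMAL1 call was left without the low-count filter, with the exocrine pancreas covariate or with the 2 groups alone. It was also lost in 16 of the 20 fits that left out 1 library, and kept only without unexposed wild-type replicate 4, unexposed mutant replicate 4 or 5 or exposed wild-type replicate 5 (edgeR adjusted p 0.00522 to 0.153 over the 20). With a block for replicate number PER3 and tefa passed in place of this BMAL1 gene (edgeR adjusted p = 0.0179 and 0.043). PER2 spread less in unexposed mutants (a 2.77-fold range) than in unexposed wild type (40.2-fold), and tefa likewise (1.61-fold and 2.88-fold); these spreads were not compared by a test. Among the other clock genes cry3a, a cryptochrome gene, was higher in mutants (1.15, edgeR adjusted p = 0.0128) and BHLHE41 was lower (-0.60, edgeR adjusted p = 0.0491), the latter not with library totals (-0.42, edgeR adjusted p = 0.15). Neither passed with the exocrine pancreas covariate, and cry3a did not pass with the 2 groups alone.

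With arsenite, exposed mutants held less of both PER1 genes and of 1 CRY1 gene than exposed wild type. PER1 (ENSDARG00000056885) was 2.27-fold lower, at 6.26 to 15.1 CPM against 18.6 to 33, with no overlap (8.74% of all tested genes were lower in this way; log2 difference -1.18 ± 0.22, edgeR adjusted p = 0.000714). PER1 (ENSDARG00000012499) was 2.06-fold lower (-1.04 ± 0.22, edgeR adjusted p = 0.00199) and CRY1 (ENSDARG00000011583) 2.25-fold lower (-1.17 ± 0.31, edgeR adjusted p = 0.0108), each with some overlap. These 3 of 12 stand beside 20.6% of all tested genes called, 7.68% higher and 12.9% lower. NR1D1 lay near the threshold (-1.11 ± 0.40, edgeR adjusted p = 0.0556) and passed when exposed mutant replicate 1 or 5 or exposed wild-type replicate 4 was left out (lowest edgeR adjusted p = 0.0118), and by DESeq2 (-1.09, adjusted p = 0.0289). NR1D1 and PER3 passed with a block for replicate number (edgeR adjusted p = 0.00159 and 0.0105). BMAL1 (ENSDARG00000006791) was higher in every exposed mutant library (5.02 to 6.38 CPM) than in any exposed wild-type library (2.49 to 4.9), as were 6.66% of all tested genes, yet its difference of 0.55 ± 0.35 did not pass (edgeR adjusted p = 0.288); it did with the 2 exposed groups fitted alone (0.59, edgeR adjusted p = 0.0343). Of the 37 other clock genes 10 were lower in exposed mutants and 0 higher (6 and 5 with library totals), led by BHLHE41 (-2.56, edgeR adjusted p = 6.12e-08), BHLHE40 (-1.63, edgeR adjusted p = 1.34e-05) and hlfa (-1.03, edgeR adjusted p = 6.96e-05).

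The response to arsenite was itself compared between the genotypes as mutant change minus wild-type change. It was below 0 for 12 of the 12 clock genes and for 54.7% of all tested genes, which for the 2 BMAL1 genes means a smaller rise in mutants. For 3 genes the difference passed, against 3.98% of all tested genes, 1.31% higher and 2.67% lower. PER1 (ENSDARG00000012499) differed by -1.30 ± 0.31 (edgeR adjusted p = 0.0229), PER1 (ENSDARG00000056885) by -1.17 ± 0.31 (edgeR adjusted p = 0.0396) and CRY1 (ENSDARG00000011583) by -1.55 ± 0.43 (edgeR adjusted p = 0.045). All 3 sat near the threshold. The first was lost only without exposed wild-type replicate 2 (edgeR adjusted p = 0.0503). The second was lost in 14 of 20 fits without 1 library and kept without exposed wild-type replicate 1 or 4, exposed mutant replicate 1 or 5, unexposed mutant replicate 4 or unexposed wild-type replicate 5 (edgeR adjusted p 0.0253 to 0.0814 over the 20). The CRY1 call was lost in 15 of 20 and kept without exposed mutant replicate 3, exposed wild-type replicate 1 or 5 or unexposed wild-type replicate 2 or 4 (edgeR adjusted p 0.0225 to 0.0923). The last 2 calls were also lost without the low-count filter and with the exocrine pancreas covariate, and the CRY1 call with library totals and with robust dispersions. Differences of similar size did not pass for tefa (-1.16 ± 0.43, edgeR adjusted p = 0.138) and PER3 (-1.06 ± 0.42, edgeR adjusted p = 0.168). Among the alternative fits, both passed only with a block for replicate number (edgeR adjusted p = 0.0259 for tefa and 0.0057 for PER3). Among the other clock genes BHLHE41 (-1.97, edgeR adjusted p = 0.00061) and BHLHE40 (-1.48, edgeR adjusted p = 0.0067) passed.

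Within groups several clock genes varied in step, and the same library numbers stood high or low. Replicates are numbered 1 to 5 in every group (cl1 to cl5 in the titles). The labels do not say what a number stands for, nor at what hour each library was dissected. Libraries numbered 2 and 4 were the 2 highest of 5 for PER3 and CRY1 (ENSDARG00000045768) in 4 of 4 groups and for PER2 and tefa in 3. They were the 2 lowest for nr1d2a in 4 of 4 groups and for NR1D1 in 3. Over all tested genes, these 2 numbers were the highest in 4 of 4 groups for 0.281% and the lowest for 0.22%. In 3 of 4 groups they were the highest for 1.47% and the lowest for 1.85%. The numbers 2 and 4 were picked after the clock values had been seen, so these shares describe the pattern and do not test it. PER1 and NR1D2 showed no such order, with the 2 numbers at the top or bottom in at most 1 group each way.

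**Figure D4:**
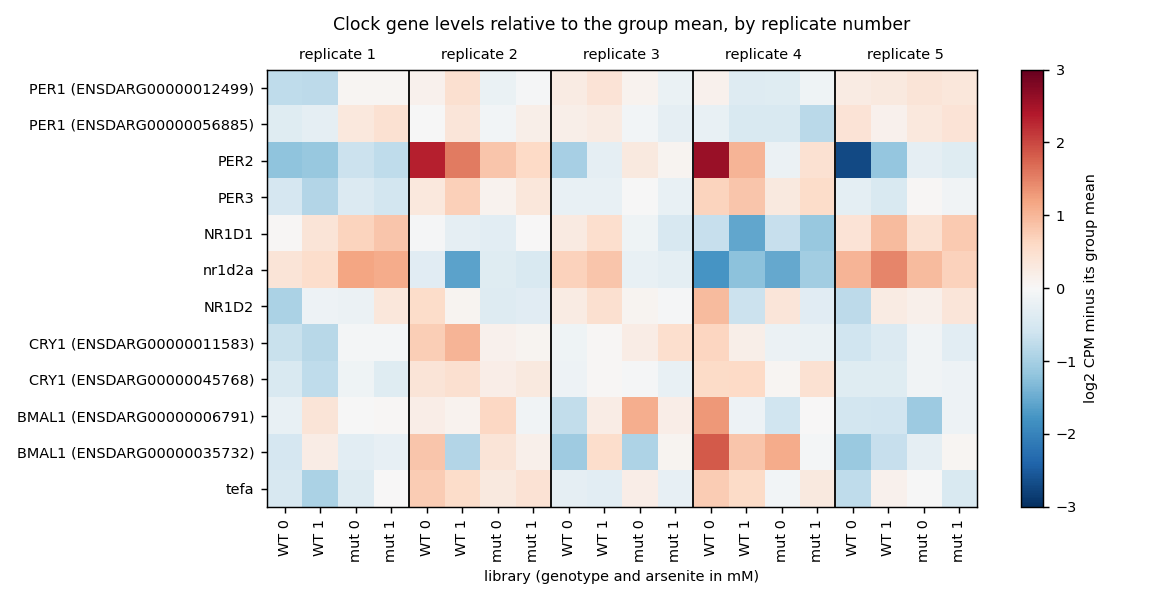
Deviation of log2 CPM from the group mean for the 12 clock genes, in each of the 20 libraries ordered by replicate number. Libraries numbered 2 and 4 lie above 0 for PER3 and CRY1 (ENSDARG00000045768) and below 0 for nr1d2a in the 4 groups.

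After the 4 group means were removed, the deviations of PER3 and CRY1 (ENSDARG00000045768) had a Pearson r of 0.96 across 20 libraries (Spearman rho 0.96). This was the closest match of each among 12230 other genes with a symbol and a mean of at least 1 CPM. Libraries share depth and handling within these values, so the correlations are descriptions only. PER2 moved with tefa (r 0.87) and with both CRY1 genes (0.84 and 0.84), while NR1D1 and nr1d2a moved with each other (0.87) and against PER3 (-0.76 and -0.84). The 2 PER1 genes moved together (0.70), and PER1 (ENSDARG00000056885) moved with NR1D1 (0.78) more than with PER3 (-0.31). The BMAL1 genes had their largest r among the 12 with PER2 (0.55 and 0.62). Both values rest mostly on the unexposed wild-type libraries, where PER2 had a 40.2-fold range. There the BMAL1 genes had only 8 to 35 and 2 to 23 counts. Outside the 12, the closest genes to tefa were cry-dash (0.92), the DNA damage sensor XPC (0.89) and cry5 (0.89), and cry5 and cry-dash also followed PER3 as the closest to CRY1 (ENSDARG00000045768), at 0.90 each. PER2 was closest to lonrf4 (0.96), tlcd2 (0.94) and XPC (0.94). NR1D1 was closest to NHSL1 (0.93), CYP2R1 (0.93) and CYP27B1 (0.90), the last pair encoding vitamin D hydroxylases. The gene nr1d2a was closest to CHAC1 (0.93), SLC25A25 (ENSDARG00000010572, 0.93) and GADD45A (ENSDARG00000104571, 0.91). PER1 (ENSDARG00000056885) was closest to ptgdsa (0.93), ULK2 (0.89) and PNPLA3 (0.89), and PER1 (ENSDARG00000012499) to PI4KB and gpr146 (0.86 each) and cyp2ad2 (0.82). NR1D2 was closest to TEAD1 (0.87), CRY1 (ENSDARG00000011583) to SNX19 (ENSDARG00000079931, 0.88), BMAL1 (ENSDARG00000006791) to cry4 (0.84) and BMAL1 (ENSDARG00000035732) to ALKBH8 (0.88).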

How the data were processed

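The deposited files hold raw whole-number counts per Ensembl gene identifier, 1 file per library. Per the submitters' processing notes the tools were FastQC 0.11.5 and Trimmomatic 0.36 and the genome build was GRCz10. Aligner, counter and annotation release are not given in the sources used here, and the labels name 2 library kits, so whether counting used strand, and how reads shared by paralogues were split, is not known. Per the labels, RNA had an integrity number above 7, and 12 PCR cycles were used. Each library is a pool of 12 to 15 livers, so p-values measure the spread between pools. Totals were 25406597 to 42047561 counts. Symbols came from a table of gene names that matched 81.8% of identifiers. No coordinates or sequences are printed.

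In R 4.3.3, edgeR 4.0.16 was fitted to all 20 libraries with 4 group means, filterByExpr (0.29 CPM in 5 libraries; 16389 genes), TMM scaling, estimateDisp, glmQLFit and 2-sided glmQLFTest, adjusted by Benjamini-Hochberg over all tested genes and called under 0.05. The common biological coefficient of variation was 0.28. The SE of a log2 change was taken from the change and its F value, and CPM uses TMM-scaled totals. All 12 genes passed the filter, so the exact permutation test planned for genes below it had no case. The fit was also run on simulated counts in which few genes changed, which does not bear on how the results depend on the scaling. Deviations within groups used log2 CPM with a prior count of 2. Alternatives were DESeq2 size factors, library totals, the DESeq2 1.42.0 Wald test, no filter beyond 1 count, robust dispersions, a replicate block, a covariate for exocrine pancreas markers, each pair of groups alone, and leaving out each library. Tables and figures were made in Python 3.11.15 with pandas 2.3.3, scipy 1.17.1 and matplotlib 3.10.9.

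The clock genes and lists were chosen with earlier results of these data known. Named genes were the 12, as3mt, the other clock genes (values for those called or at 10 CPM or more in some group), and for each of the 12 the 3 genes with the closest within-group deviations. Of the genes meeting this rule, some are not reported here. Marker lists of other cell types summed, over all 20 libraries, to 24.1 to 326 CPM (intestine), 391 to 1162 (biliary), 52.3 to 191 (endothelial), 20.3 to 48.4 (stellate), 2.15 to 13.9 (macrophage), 54.7 to 204 (red blood cell), 0.428 to 44.2 (muscle) and 0.575 to 30.1 (neuron and retina, highest through SNAP25 in exposed libraries).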

Additional observations from a re-analysis of the deposited data

Results flagged for a closer look

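In unexposed wild type, replicate 1 held 51.7 CPM of PER1 (ENSDARG00000012499), apart from the other 4 libraries at 94.7 to 103. This was the only such library among 48 combinations of gene and group looked at, and chance flags about 1 in 20. Without that library the log2 change with arsenite in wild type was -1.88 and the difference of responses -1.16, and each still passed.

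For 3 genes the response to arsenite differed between the genotypes in a direct test of the difference. The log2 difference, mutant minus wild type, was -1.30 for PER1 (ENSDARG00000012499; edgeR adjusted p = 0.0229), -1.17 for PER1 (ENSDARG00000056885; edgeR adjusted p = 0.0396) and -1.55 for CRY1 (ENSDARG00000011583; edgeR adjusted p = 0.045). Genotype and background line cannot be told apart in these values.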

How the results depend on the processing

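The 9 calls in wild type and 11 in mutants became 6 and 8 with library totals, 10 and 11 with the replicate block, and were 9 and 11 under the other alternatives; leaving out 1 library gave 9 to 10 and 11 to 11. For genotype without arsenite, the 1 call became 0 without the filter, with the pancreas covariate and with the 2 groups alone, and 2 with the replicate block (0 to 2 without 1 library). For genotype with arsenite, 3 became 5 with the block, 4 by DESeq2 (NR1D1 added) and 4 with the 2 groups alone (BMAL1 ENSDARG00000006791 added), and was 3 to 4 without 1 library. For the difference of responses, 3 became 1 without the filter, 1 with the covariate and 5 with the block (0 to 3 without 1 library). Over all tested genes, counts moved from 2265 to 1130 for genotype without arsenite (covariate), from 3369 to 5470 for genotype with it (library totals) and, for the difference, from 652 to 1092 (DESeq2) and to 408, 383 and 405 without exposed wild-type replicate 2, exposed mutant replicate 3 and exposed mutant replicate 4. The cause was not tested.

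No change that turned direction passed the test. With library totals they were NR1D1 in wild type (0.08), nr1d2a in wild type (0.32) and mutants (0.19), PER1 (ENSDARG00000056885) between unexposed groups (0.15), and PER2 (0.23) and CRY1 (ENSDARG00000045768; 0.02) between exposed groups. PER1 (ENSDARG00000056885) between unexposed groups was 0.00 with the covariate and 0.02 with the groups alone. PER2 between exposed groups was 0.34 with the block and 0.28 with the covariate, and the difference of nr1d2a was 0.10 with the covariate. Leaving out 1 library turned PER1 (ENSDARG00000056885) between unexposed groups (-0.10 to 0.10), PER2 between exposed groups (-0.30 to 0.43), NR1D2 there (as low as -0.06) and the difference of nr1d2a (-0.59 to 0.21).

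Same-numbered libraries correlated at -0.08 to 0.398 over 20 pairs of libraries, above 0.1 in 13. The numbers were taken to pair the samples only if every pair exceeded 0.1 or the labels said so, and neither held. Yet 14 of the 20 correlated better with their own number than with any other. The numbers may therefore pair the samples, which the main fit leaves out. With the number as a replicate block, NR1D1 passed in wild type (-0.79, edgeR adjusted p = 0.0051), PER3 (0.52) and tefa (0.66) passed between unexposed groups in place of BMAL1 (ENSDARG00000006791; edgeR adjusted p = 0.0534), PER3 (-0.54) and NR1D1 (-1.08) passed between exposed groups, and PER3 (-1.06) and tefa (-1.22) passed in the difference. Depth limits the unexposed BMAL1 values most, at 2 to 35 counts in wild type.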

Other observations

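The replicate number was also tested as a term beside the group, by an edgeR F test over all tested genes that was chosen after the values had been seen. It was called for 70 of 16389 genes (0.427%), among them 4 of the 12 clock genes. These were nr1d2a (rank 5 of all genes, edgeR adjusted p = 0.012), PER3 (rank 7, edgeR adjusted p = 0.012), NR1D1 (rank 31, edgeR adjusted p = 0.0226) and CRY1 (ENSDARG00000045768; rank 39, edgeR adjusted p = 0.0256). Of the 37 other clock genes 3 were called: cry-dash (edgeR adjusted p = 0.0198), cry5 (edgeR adjusted p = 0.0266) and nr1d4b (edgeR adjusted p = 0.0405). PER2 and tefa, whose replicates 2 and 4 stood high in 3 of 4 groups, did not pass (edgeR adjusted p = 0.103 and 0.119). With DESeq2 size factors 70 genes and 4 clock genes were called, and with library totals 110 and 5. What the numbers stand for, and whether dissection hour went with them, was not tested.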
